A study of Homo sapiens with 9 samples.

Results

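SOX9, SOX4, SOX5, NFIA, NFIB, NFIC, NFIX, ZEB1, ZEB2 and SNAI2 encode DNA-binding proteins known from glial development and from mesenchymal cells. They were taken by symbol from a count table of 60675 genes, and all 10 were found and passed the filter on low counts. SW1783, an established human astrocytoma line, was kept in L-15 with fetal bovine serum at 10% and exposed for 24 h to an extract or to DMSO. The extracts were made with 70% ethanol from Poria Cocos, a fungus, or Atractylodis Rhizoma, a plant rhizome, both used in tonifying herbal medicine. Each was given at 20, 100 and 500 µg/mL with 1 library per dose, all numbered replicate 2, and the vehicle had replicates 1 to 3. The vehicle is given as 0.1% DMSO in the sample labels and as 2% in the series design, which was not settled, and no DMSO percentage is given for the treated libraries. The labels carry 1 batch letter for all 9 libraries and do not say that the replicates were separate cultures, so p-values here speak of the spread among these libraries alone, and part of it may be technical. The data are bulk RNA from 1 cell line, in which fewer cells of a type and less RNA per cell cannot be told apart.

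In chick and mouse embryos SOX9 and NFIA act together in the developing spinal cord, where they switch neural precursors from making neurons to making glia. SOX9 also directs cartilage formation, and it stays on in adult astrocytes. The other nuclear factor I proteins (NFIB, NFIC and NFIX) bind the same DNA element as NFIA. ZEB1, ZEB2 and SNAI2 are zinc finger repressors that bind E-boxes in epithelial genes and accompany epithelial-mesenchymal transition, and they are also expressed in glioma cells of mesenchymal character.

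Library totals lay between 40269708 and 48905602 counts, and mitochondrial transcripts took 5.384% to 6.971% of them. On the first principal component of 11563 genes (49.4% of the variance), the treated libraries lay between 2.6 and 9.81, and the vehicle libraries between -13.12 and -12.26. Chi-square per degree of freedom between counts of library pairs was 3.47 for the 20 µg/mL Poria and the 100 µg/mL Atractylodis library, which is close to the 2.46 to 3.44 of vehicle pairs, and 7.79 or more for every other pair that included a treated library.

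Several classical astrocyte genes were near 0 in these cells, and others were not. GFAP, the astrocyte intermediate filament, had 0 to 7 expected counts per library, AQP4, the water channel of astrocyte endfeet, 0 to 3, ALDH1L1 0 to 2, S100B 1 to 7 and FABP7 0 to 4. SOX2 had 3 to 8, SOX10, the oligodendrocyte and neural crest SOX gene, 0 to 1, and OLIG2 5 to 15. Mesenchymal transcripts were abundant: VIM, the filament of mesenchymal cells and immature glia, had 4674 to 5378 CPM (counts scaled to library size with TMM factors) in treated libraries, against 5987 ± 164 in vehicle (SD, n = 3). CD44, the hyaluronan receptor, had 2493 to 2741 CPM in treated libraries and 2748 ± 46.7 in vehicle. The epithelial genes CDH1 and EPCAM had at most 4 expected counts in any library. Other genes of the astrocyte list, which other cell types express too, were well expressed: GJA1, the gap junction protein connexin 43, had 209 to 249 CPM in treated libraries and 256 ± 3.22 in vehicle, GLUL, glutamine synthetase, 53.8 to 57.9 and 52.4 ± 1.79 CPM, and SLC1A3, a glutamate transporter, 25.0 to 27.1 and 21.4 ± 0.509 CPM. The astrocyte list of 14 genes summed to 1483 to 1650 CPM in treated and 1572 to 1640 CPM in vehicle libraries. Most of that sum came from list genes whose levels are not given here, so it does not describe the genes above.

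Compared per kilobase of the longest annotated transcript, vehicle levels of the 10 genes spanned a wide range. NFIX was highest, with 70.7 ± 3.12 CPM per kb (SD, n = 3 for each gene). SNAI2 (32.7 ± 1.63), NFIC (28.6 ± 0.738), SOX9 (21.3 ± 0.229), SOX4 (15.5 ± 0.364) and ZEB1 (11.7 ± 0.390) followed on the same CPM per kb scale. ZEB2 (1.72 ± 0.0522), NFIB (1.37 ± 0.0240), NFIA (0.509 ± 0.0161) and SOX5 (0.219 ± 0.0137) were the 4 lowest in CPM per kb. The ranges of the 3 vehicle libraries did not overlap for any of the 9 neighbouring pairs in this order, although with exon union length in place of transcript length ZEB2 and NFIB changed places. Some relatives thus lay far apart: SOX9 above SOX5, NFIX and NFIC above NFIA and NFIB, and ZEB1 above ZEB2. SOX9 and SOX4 lay closer together (21.3 and 15.5 CPM per kb).

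None of the 10 genes was called higher, and several of the abundant ones were called lower. Trends over the steps vehicle, 20, 100 and 500 µg/mL were tested with the edgeR quasi-likelihood test. For Poria 5 of 10 had a falling trend (SOX9, SOX4, NFIC, NFIX and SNAI2), where 11.6% of the 18356 genes tested were called lower, 9.16% higher and 20.8% either way. For Atractylodis 4 of 10 fell (SOX9, NFIB, NFIC and NFIX), where 10.5% of genes were called lower, 8.49% higher and 19% either way. Comparing all 6 treated libraries with the 3 vehicle libraries, 3 of 10 fell (SOX9, NFIC and SNAI2), against a background of 13.3% lower, 12% higher and 25.3% either way. The same 3 had every treated library below every vehicle library in CPM, which 13.7% of tested genes had, and SOX5 had every treated library above, as did 12.4% (26.1% in either direction). The median slope of the 10 genes was -0.04 log2 per step for Poria (0.001 over all genes) and -0.03 for Atractylodis (0.003 over all genes). The median log2 difference between treated and vehicle libraries was -0.07 for the 10 genes, against 0.01 over all genes. The 2 trends share the vehicle libraries and include the step from vehicle to 20 µg/mL, so a called trend need not be a change from dose to dose. Among the treated libraries alone, the slope was called for 1 of 10 with Poria (SOX9), where 2.45% of genes were called either way. With Atractylodis it was called for 2 of 10 (NFIC and NFIX), where 4.04% were. Fitted against dose in µg/mL, where the 500 µg/mL library carries most of the slope, 1 of 10 stayed called for Poria (SOX4) and 0 of 10 for Atractylodis, while 125 and 67 genes were called among all genes. At an unadjusted p under 0.05 on the step scale there were 6 of 10 and 5 of 10. The share of all genes at that cutoff was not counted, so these 2 counts have no background to be read against.

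**Figure D1:**
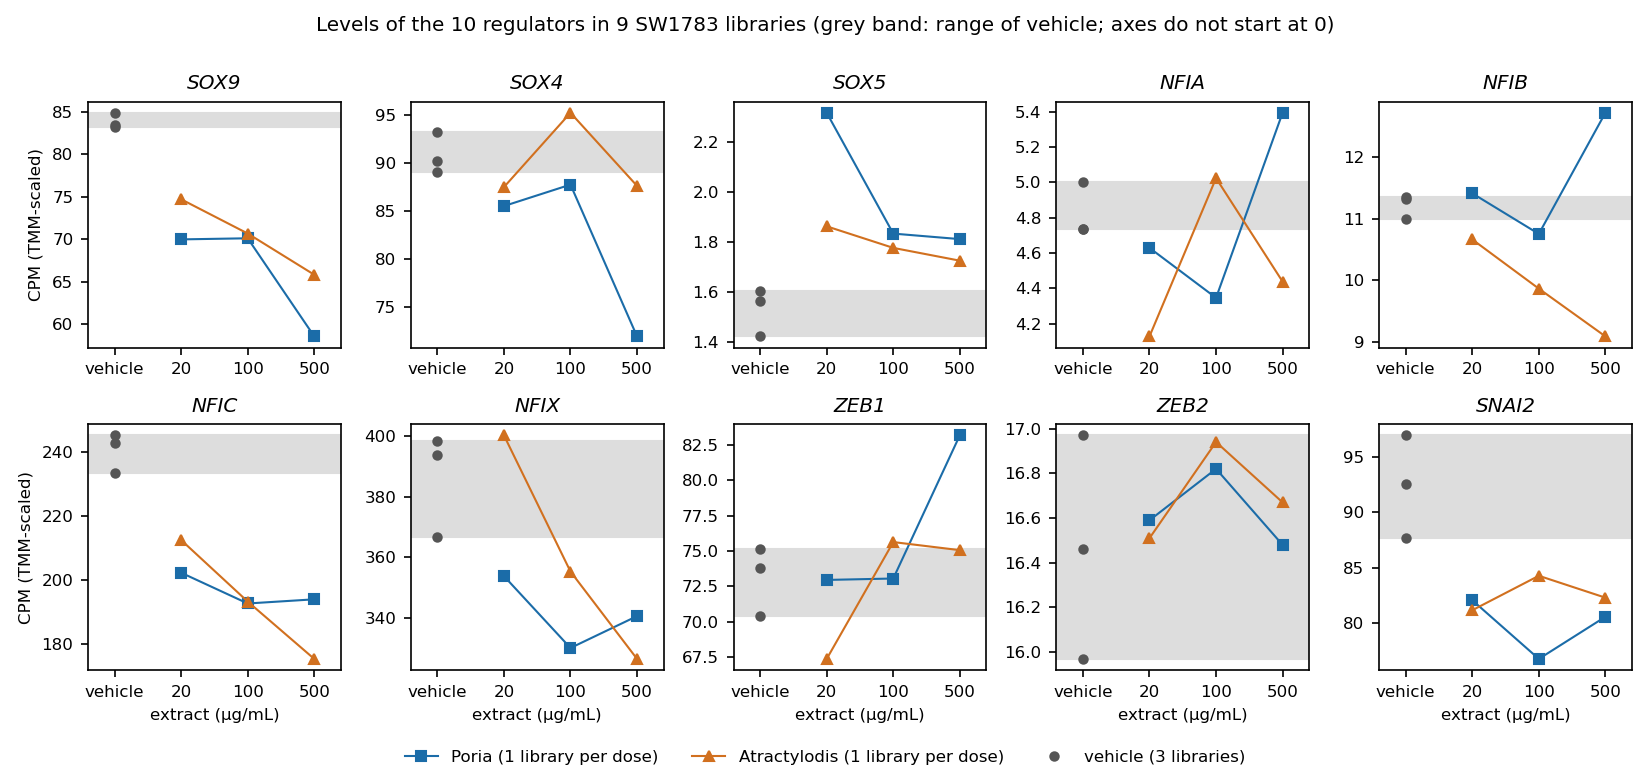
CPM of each of the 10 genes (vertical axes, linear) at vehicle, 20, 100 and 500 µg/mL (horizontal axis) in the Poria and Atractylodis libraries, 1 point per library, with 3 vehicle libraries. SOX9, NFIC and SNAI2 have all 6 treated libraries below the vehicle libraries, and ZEB2 has all 6 inside the vehicle range.

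SOX9 (ENSG00000125398, chr17:72121020-72126420, GRCh38, plus strand), the high-mobility-group factor of gliogenesis and cartilage, fell under both extracts. It had 83.2, 84.9 and 83.5 CPM in the vehicle libraries, then 70.0, 70.1 and 58.6 CPM at 20, 100 and 500 µg/mL Poria. With Atractylodis it had 74.7, 70.7 and 65.8 CPM at the same doses. All 6 treated libraries lay below the vehicle range, lowest at 500 µg/mL of each extract: 30.1% below the vehicle mean with Poria and 21.5% with Atractylodis. The slope was -0.16 ± 0.019 log2 per step for Poria (SE, adjusted p = 6.6e-05, edgeR) and -0.11 ± 0.019 for Atractylodis (adjusted p = 0.00084, edgeR). Treated libraries averaged 68.3 ± 5.53 CPM (SD, n = 6) and vehicle libraries 83.8 ± 0.899 CPM (SD, n = 3), a log2 difference of -0.30 ± 0.057 (adjusted p = 0.0015, edgeR). With the 20 µg/mL libraries already low, SOX9 showed both a step from vehicle and, for Poria, a slope among the treated libraries alone (-0.13 ± 0.033 log2 per step, adjusted p = 0.038, edgeR), where 1.25% of genes were called lower and 1.2% higher. That last call rests on the 500 µg/mL library, without which the slope was 0.003 (adjusted p = 1), and it also missed the threshold without vehicle 1, 2 or 3 (adjusted p = 0.066, 0.051 and 0.059) and in DESeq2 (0.075). The trends from vehicle passed with each of the 9 libraries left out, and missed the threshold only with dose in µg/mL (adjusted p = 0.07 for Poria and 0.29 for Atractylodis).

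SOX4 (ENSG00000124766, chr6:21592768-21598619, plus strand), a factor of progenitor cells and of TGF-beta responses in glioma, was lower in 1 library above all. It had 89.1, 93.2 and 90.2 CPM in vehicle, then 85.5, 87.8 and 71.9 CPM at 20, 100 and 500 µg/mL Poria, and 87.5, 95.3 and 87.6 CPM at the same doses of Atractylodis. The Poria 500 µg/mL library was 20.9% below the vehicle mean, while the other 5 treated libraries were between 5.9% below and 4.8% above it, and the groups overlapped. The fall with Poria (-0.09 ± 0.022 log2 per step, adjusted p = 0.0079, edgeR) was lost without that library (-0.032, adjusted p = 0.51), and the Atractylodis slope was -0.01 (adjusted p = 0.82, edgeR).

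SOX5 (ENSG00000134532, chr12:23529500-24562544, minus strand), a SOX partner of SOX9 in cartilage that in mice also restrains oligodendrocyte maturation, was scarce, with 58 to 102 expected counts per library. It had 1.56, 1.60 and 1.42 CPM in vehicle, then 2.31, 1.83 and 1.81 CPM at 20, 100 and 500 µg/mL Poria, and 1.86, 1.78 and 1.72 CPM at the same doses of Atractylodis. Every treated library was above every vehicle library, the highest at the lowest Poria dose. The difference between treated and vehicle libraries (1.89 ± 0.215 CPM, SD, n = 6, and 1.53 ± 0.0953 CPM, SD, n = 3) was 0.30 ± 0.13 on the log2 scale and did not pass the threshold (adjusted p = 0.1, edgeR), nor did the slopes (adjusted p = 0.5 for Poria and 0.82 for Atractylodis).

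Of the 4 nuclear factor I genes, NFIC and NFIX, abundant and GC-rich, fell with both extracts, NFIB, scarce and GC-poor, fell with Atractylodis, and NFIA, also scarce and GC-poor, was not called. Differences between these paralogs were not tested. To show the DNA before genes of 1 family that gave different calls, the 250 bases before a RefSeq start (GRCh38.p14) are printed for the 3 that have a window touching no GENCODE 29 exon. RefSeq gives 3 windows for NFIA, 10 for NFIB and 5 for NFIX, of which 2, 6 and 3 touch no exon, and the one printed is the most upstream of these. The NFIA window is chr1:61076977-61077226 on the plus strand, inside the gene, and the NFIX window is chr19:12995225-12995474 on the plus strand. The NFIB window, chr9:14532078-14532327 on the minus strand, lies far upstream of the GENCODE 29 gene, whose start on that strand is at chr9:14398983. It is therefore not the DNA next to the start of that gene. Capitals mark a match on either strand to TTGGC, the core of the nuclear factor I element, to ACAAAG, a core element of SOX proteins, to AACAAT, another such element, or to CACCTG, the E-box bound by ZEB and SNAI proteins. None of these matches overlapped another.
NFIA: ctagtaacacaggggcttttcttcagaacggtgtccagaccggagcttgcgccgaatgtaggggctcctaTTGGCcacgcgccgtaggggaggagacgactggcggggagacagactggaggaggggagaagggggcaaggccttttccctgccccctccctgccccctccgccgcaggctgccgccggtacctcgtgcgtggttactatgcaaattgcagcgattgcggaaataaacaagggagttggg
NFIB: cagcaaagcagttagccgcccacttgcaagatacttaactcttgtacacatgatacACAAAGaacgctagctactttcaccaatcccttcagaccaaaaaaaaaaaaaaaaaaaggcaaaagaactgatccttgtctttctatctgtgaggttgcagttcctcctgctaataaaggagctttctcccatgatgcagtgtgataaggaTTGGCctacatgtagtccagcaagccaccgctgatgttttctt
NFIX: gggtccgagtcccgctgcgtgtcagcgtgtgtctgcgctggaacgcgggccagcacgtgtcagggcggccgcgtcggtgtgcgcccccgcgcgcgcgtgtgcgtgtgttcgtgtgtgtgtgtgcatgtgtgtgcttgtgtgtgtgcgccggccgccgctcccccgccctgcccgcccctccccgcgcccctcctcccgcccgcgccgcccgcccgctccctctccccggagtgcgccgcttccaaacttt
The NFIA window holds 1 TTGGC, starting 180 bases before the start, and the NFIB window holds 1 TTGGC (43 bases before) and 1 ACAAAG (194 bases before). The NFIX window printed holds none of the 4 motifs, and the other windows of these genes are not described. Of 35116 RefSeq windows of the same length, 40.8% hold TTGGC, 13.7% ACAAAG, 9.0% AACAAT and 17.5% CACCTG on either strand. GC content was 62.0% in the NFIA window, 42.0% in the NFIB window and 74.8% in the NFIX window. Of the 10 genes, 8 had a window in the RefSeq table.

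NFIC (ENSG00000141905, chr19:3314403-3469217, plus strand) fell under both extracts. It had 242.8, 233.4 and 245.1 CPM in vehicle, then 202, 193 and 194 CPM at 20, 100 and 500 µg/mL Poria, and 212, 193 and 175 CPM at the same doses of Atractylodis. All 6 treated libraries lay below the vehicle range, and the lowest, Atractylodis at 500 µg/mL, was 27.1% below the vehicle mean. The slopes were -0.12 ± 0.019 log2 per step for Poria (adjusted p = 0.00063, edgeR) and -0.14 ± 0.020 for Atractylodis (adjusted p = 0.00033, edgeR). Treated libraries averaged 195 ± 12.3 CPM (SD, n = 6) and vehicle libraries 240.5 ± 6.20 CPM (SD, n = 3), a log2 difference of -0.30 ± 0.047 (adjusted p = 0.00017, edgeR). With Poria the level was much the same at all 3 doses, and the slope over the treated libraries alone was -0.03 ± 0.027 (adjusted p = 0.65, edgeR). With Atractylodis it fell from dose to dose, with a slope within the treated libraries of -0.14 ± 0.027 (adjusted p = 0.0051, edgeR), lost without the 500 µg/mL library (-0.136, adjusted p = 0.17) or the 20 µg/mL library (-0.14, adjusted p = 0.3). The trends from vehicle passed with each of the 9 libraries left out and missed the threshold with dose in µg/mL (adjusted p = 0.35 for Poria and 0.26 for Atractylodis).

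NFIX (ENSG00000008441, chr19:12995608-13098796, plus strand), in mice a regulator of neural stem cell quiescence and of glial genes, had the highest level of the 10. It had 398.2, 366.6 and 393.6 CPM in vehicle, then 354, 330.1 and 341 CPM at 20, 100 and 500 µg/mL Poria, and 400.2, 355 and 326 CPM at the same doses of Atractylodis. The groups overlapped in 1 library, Atractylodis at 20 µg/mL, which was 3.7% above the vehicle mean, and the other 5 were 8.0% to 15.4% below it. It fell with Poria (-0.08 ± 0.021 log2 per step, adjusted p = 0.011, edgeR) and Atractylodis (-0.07 ± 0.022, adjusted p = 0.035, edgeR). For Poria the slope within the treated libraries was not called (-0.03 ± 0.030, adjusted p = 0.72, edgeR). Within the Atractylodis libraries the slope was -0.15 ± 0.030 (adjusted p = 0.0067, edgeR), where 2.54% of genes were called lower and 1.5% higher, and it was lost without the 500 µg/mL (adjusted p = 0.15) or the 20 µg/mL library (0.53). Both trends were lost with offsets for GC content and length (-0.050, adjusted p = 0.062, and -0.039, adjusted p = 0.15). The Atractylodis trend was also lost without vehicle 1 (0.096), vehicle 3 (0.086), Atractylodis 100 µg/mL (0.083) or 500 µg/mL (-0.036, 0.57).

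NFIB (ENSG00000147862, chr9:14081843-14398983, minus strand), which promotes gliogenesis in the developing mouse forebrain, had a called trend from vehicle for 1 extract. It had 11.3, 11.3 and 10.99 CPM in vehicle, then 11.4, 10.8 and 12.7 CPM at 20, 100 and 500 µg/mL Poria, and 10.7, 9.86 and 9.08 CPM at the same doses of Atractylodis. All 3 Atractylodis libraries were below the vehicle range, the lowest 19.0% below the vehicle mean, and 2 of the 3 Poria libraries were above it. It fell with Atractylodis (-0.09 ± 0.030 log2 per step, adjusted p = 0.037, edgeR), and the Poria slope was 0.04 ± 0.029 (adjusted p = 0.39, edgeR). Within the Atractylodis libraries alone the slope was not called (-0.115 ± 0.058, adjusted p = 0.29, edgeR). The call of the Atractylodis trend was near the threshold: it was lost with no filter (adjusted p = 0.054), in DESeq2 (0.058), with vehicle 1, 2 or 3 left out (0.091, 0.081 and 0.068) and without Atractylodis 100 µg/mL (0.08) or 500 µg/mL (0.33).

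NFIA (ENSG00000162599, chr1:60865259-61462793, plus strand), the partner of SOX9 in the gliogenic switch, had 5.00, 4.74 and 4.74 CPM in vehicle, then 4.63, 4.35 and 5.39 CPM at 20, 100 and 500 µg/mL Poria. With Atractylodis it had 4.13, 5.02 and 4.44 CPM at the same doses. No order by dose is visible: 4 of 6 treated libraries were below the vehicle range and 2 above it. Neither slope passed the threshold (0.03 ± 0.043, adjusted p = 0.64, for Poria, and -0.01 ± 0.045, adjusted p = 0.9, for Atractylodis, edgeR), at 184 to 271 expected counts per library. Whether NFIA differed from SOX9 in its response was not tested.

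SNAI2 (ENSG00000019549, chr8:48917604-48921740, minus strand), the Slug repressor of neural crest and mesenchymal cells, was lower in all treated libraries, with little order by dose. It had 92.5, 87.7 and 96.9 CPM in vehicle, then 82.1, 76.8 and 80.6 CPM at 20, 100 and 500 µg/mL Poria, and 81.2, 84.3 and 82.3 CPM at the same doses of Atractylodis. All 6 treated libraries lay below the vehicle range, at 8.8% to 16.9% below the vehicle mean. The treated libraries averaged 81.2 ± 2.499 CPM (SD, n = 6) and the vehicle libraries 92.4 ± 4.62 CPM (SD, n = 3), a log2 difference of -0.19 ± 0.039 (adjusted p = 0.0019, edgeR). That call passed with each of the 9 libraries left out and with offsets for GC content and length (-0.246, adjusted p = 0.00029). The Poria trend (-0.07 ± 0.022 log2 per step, adjusted p = 0.024, edgeR) was lost without vehicle 1 (adjusted p = 0.071), vehicle 3 (0.082) or Poria 100 µg/mL (0.09). The Atractylodis trend (-0.05 ± 0.022, adjusted p = 0.12, edgeR) passed only without Poria 500 µg/mL (0.043). Within the treated libraries the slopes were -0.01 ± 0.033 for Poria and 0.01 ± 0.033 for Atractylodis (adjusted p = 0.91 and 0.92, edgeR).

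ZEB1 (ENSG00000148516, chr10:31318495-31529814, plus strand), a repressor of CDH1 and of the miR-200 family, was highest at the top Poria dose. It had 75.2, 70.4 and 73.8 CPM in vehicle, then 73.0, 73.1 and 83.2 CPM at 20, 100 and 500 µg/mL Poria, and 67.4, 75.6 and 75.1 CPM at the same doses of Atractylodis. The groups overlapped, with 3 of 6 treated libraries inside the vehicle range and Poria at 500 µg/mL 13.7% above the vehicle mean. The Poria slope (0.05 ± 0.021 log2 per step, adjusted p = 0.072, edgeR) passed with no filter (0.039) or without Poria 100 µg/mL (0.049). It was 0.013 with GC and length offsets (adjusted p = 0.74, edgeR) and ranged from 0.011 to 0.067 with each library left out. With dose in µg/mL it was not called either (adjusted p = 0.17, edgeR). The Atractylodis slope was 0.02 (adjusted p = 0.54, edgeR). ZEB1-AS1, whose exons overlap ZEB1 on the other strand, had 4.99 to 7.05 CPM, and the sources used here do not say whether the counting used strand.

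ZEB2 (ENSG00000169554, chr2:144364364-144524583, minus strand), a related repressor needed in mice for neural crest and myelinating glia, had the narrowest spread of the 10 among the treated libraries. It had 17.0, 16.0 and 16.5 CPM in vehicle, then 16.6, 16.8 and 16.5 CPM at 20, 100 and 500 µg/mL Poria, and 16.5, 16.9 and 16.7 CPM at the same doses of Atractylodis. All 6 treated libraries were inside the vehicle range. The log2 difference between treated (16.7 ± 0.180 CPM, SD, n = 6) and vehicle libraries (16.5 ± 0.501 CPM, SD, n = 3) was 0.02 ± 0.046 (adjusted p = 0.83, edgeR). Of the 3 repressors, then, SNAI2 alone was called lower between treated and vehicle libraries, and the differences between the 3 genes were not tested.

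Differences between the extracts were not called for any of the 10 genes. In the test of the Poria slope minus the Atractylodis slope, 0 of 10 passed in edgeR and 0 in DESeq2. Of all genes, 1.16% were called in edgeR after adjustment, 0.485% higher and 0.676% lower. Without adjustment, 3 of the 10 had a p under 0.05 (edgeR), a cutoff at which the share of all genes was not counted. The 3 were NFIB (0.13 ± 0.032 log2 per step, adjusted p = 0.056, edgeR), SOX4 (-0.08 ± 0.023, adjusted p = 0.12, edgeR) and SOX9 (-0.04 ± 0.020, adjusted p = 0.37, edgeR). NFIB and SOX4 passed with no filter (adjusted p = 0.022 and 0.023) and without Poria 100 µg/mL (0.034 for each). Among the treated libraries alone, 1 of 10 had a called Poria slope (SOX9), with 2.45% of genes called either way, and 2 of 10 a called Atractylodis slope (NFIC and NFIX), with 4.04% called either way. These slopes do not use the vehicle level, but the scatter of the vehicle libraries enters their error.

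**Figure D2:**
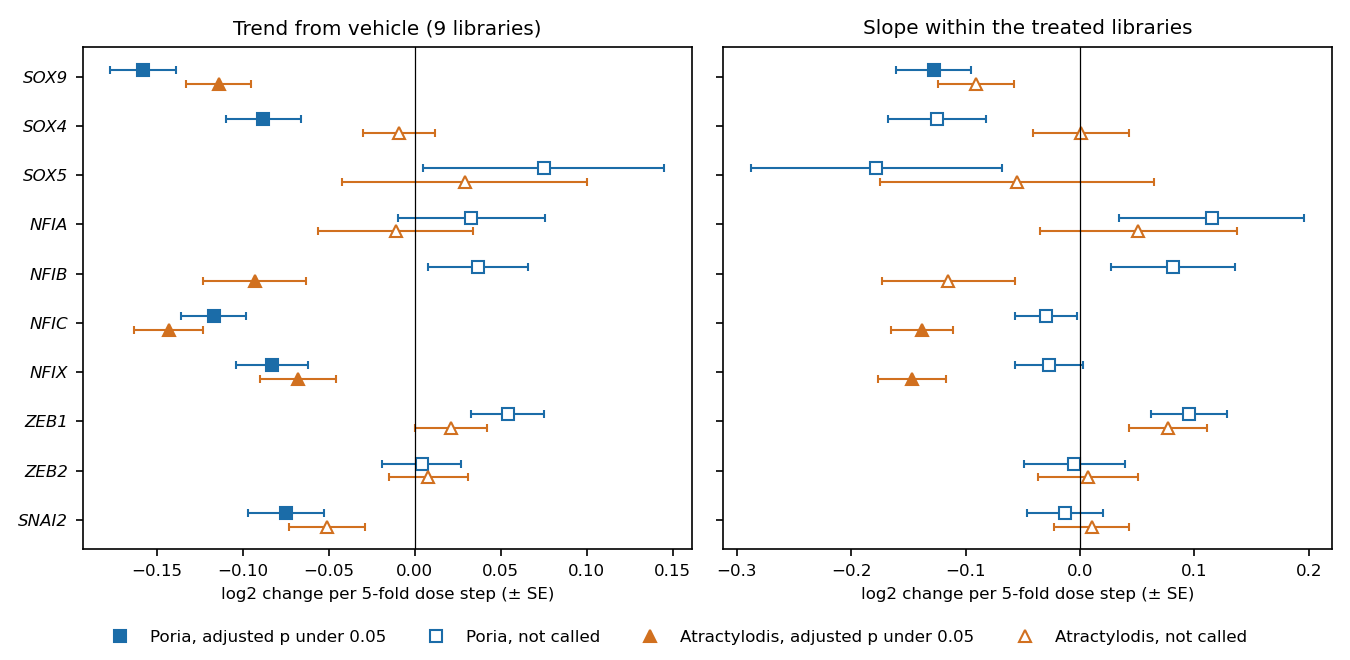
Log2 change per dose step of the 10 genes for Poria and Atractylodis, from vehicle and among the treated libraries alone, with bars of 1 SE and called slopes marked. SOX9 and NFIC lie below 0 for both extracts from vehicle, and NFIB lies below 0 for Atractylodis and above 0 for Poria.

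The changes also ran along GC content. Over 18214 genes, Spearman's rho between GC content and the log2 difference of treated from vehicle libraries was -0.298, a description across genes that are not independent. Genes called higher had a median GC content of 42.43% and genes called lower 55.75%, against 48.21% over all genes tested. NFIC (59.04% GC) and NFIX (59.33%) fall in the bin of 55% to 60%, whose median log2 difference was -0.08, and SOX9 (51.03%) and SOX4 (50.73%) in the bin of 50% to 55%, at -0.03. ZEB1 (38.49%), ZEB2 (39.08%), SOX5 (39.08%) and NFIB (39.49%) fall in the bin of 35% to 40%, with a median of 0.10, and NFIA (41.16%) and SNAI2 (41.41%) in that of 40% to 45%, with 0.07. SOX9 (-0.30), NFIC (-0.30), SNAI2 (-0.19), NFIB (-0.06) and NFIA (-0.05) were each further down than the middle 50% of genes in their bin. SOX5 (0.30) was further up than the middle 50% of its bin. NFIB, NFIA and SOX5 lay outside it by less than 1 SE (0.083, 0.092 and 0.13), and 50% of genes in a bin lie outside it by definition. With offsets for GC content and length, SOX9 kept a log2 difference of -0.264 (adjusted p = 0.0061, edgeR) and NFIC of -0.245 (adjusted p = 0.00025, edgeR), and their trends and those of SOX4 and NFIB stayed called. ZEB1 and ZEB2 turned to -0.075 and -0.092 (adjusted p = 0.23 and 0.15), neither called with or without the offsets.

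**Figure D3:**
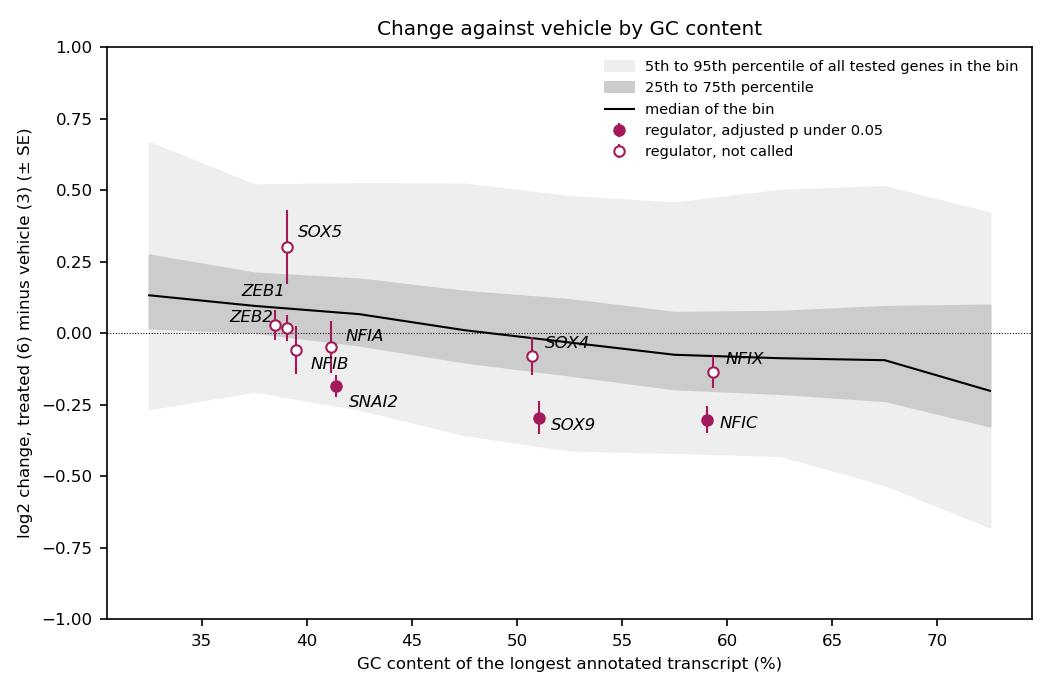
Log2 difference between treated and vehicle libraries (vertical axis) against GC content of the gene in percent (horizontal axis), with the 10 genes as points over the median and quantiles of all tested genes in bins of 5%. SOX9, NFIC, SNAI2, NFIB and NFIA lie below the middle 50% of genes in their bins, SOX5 lies above it, and the bin medians fall with GC content. NFIB, NFIA and SOX5 lie outside the middle 50% by less than 1 SE.

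Among other SOX genes and glial markers, from lists chosen with earlier results of these data known, not all could be tested. The shares of all genes called lower, to read these and the following list counts against, were 11.6% with Poria, 10.5% with Atractylodis and 13.3% between treated and vehicle libraries, and either way 20.8%, 19% and 25.3%. In number, 3815, 3495 and 4639 genes were called either way. With 1 library left out these numbers ranged over 2552 to 4242, 1035 to 4297 and 2986 to 5353, so leave-out list counts have other backgrounds. For these 3 comparisons the share of all genes with GC and length offsets is not given here. With dose in µg/mL no gene of the 12 lists was called in either trend, apart from 1 neuronal marker for Poria and 2 epithelial genes for Atractylodis. Of 16 other SOX genes 6 could be tested, and 1 of the 6 fell between treated and vehicle libraries and with each extract: SOX7, a factor of endothelial development, had 13.8 to 17.7 CPM in treated libraries and 20.6 ± 1.57 in vehicle (log2 difference -0.32 ± 0.070, adjusted p = 0.0032, edgeR). Its slopes were lost without vehicle 2, vehicle 3 or Poria 100 µg/mL for Poria (adjusted p = 0.052, 0.097 and 0.09) or with GC and length offsets (0.067), and without Atractylodis 500 µg/mL for Atractylodis (0.05). Of 12 cartilage genes that SOX9 activates, 7 could be tested and none was called in these 3 comparisons (1 between treated and vehicle libraries with no filter, without vehicle 3 or without Atractylodis 500 µg/mL), while COL2A1 and ACAN, the best known of them, had 1 to 4 expected counts. Their summed level was 48.4 to 54.2 CPM in treated libraries, against 45.8 to 50.8 CPM in vehicle. Of 14 astrocyte markers 8 could be tested. SLC1A3 rose in treated libraries (log2 difference 0.28 ± 0.047, adjusted p = 0.00036, edgeR), and GJA1 fell by 0.08 log2 per step with Poria (adjusted p = 0.0038, edgeR), a call lost without the 500 µg/mL library (adjusted p = 0.1). In all, 1 astrocyte marker was called higher and 1 lower with Poria, 2 higher and none lower with Atractylodis (SLC1A3 and NES), and 1 each way between treated and vehicle libraries. The Poria call of SLC1A3 was lost without vehicle 1, 2 or 3 (adjusted p = 0.095, 0.089 and 0.068) or Poria 100 µg/mL (0.098) and with GC and length offsets (0.075), that of NES without Atractylodis 500 µg/mL (0.085), and GJA1 between treated and vehicle libraries in 6 of 9 leave-outs (up to 0.13).

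Of 10 oligodendrocyte lineage markers 5 could be tested, and 1 rose (MBP) and 1 fell (CSPG4) with Poria, while none was called with Atractylodis. The MBP call was lost without Poria 500 µg/mL (adjusted p = 0.2) and the Poria call of CSPG4 without vehicle 3 (0.059) or Poria 100 µg/mL (0.07). CSPG4, the NG2 proteoglycan, fell between treated and vehicle libraries (-0.15 ± 0.037, adjusted p = 0.0057, edgeR), but not with GC and length offsets (-0.075, adjusted p = 0.068; Poria trend 0.11). Of 10 neuronal markers 7 could be tested, and 2 fell with Poria (NEFL and TUBB3) and none was called with Atractylodis or between treated and vehicle libraries. Without Poria 500 µg/mL, 0 of the 7 were called for Poria, and TUBB3 was also lost without vehicle 1 (adjusted p = 0.061) or vehicle 2 (0.05) and with GC and length offsets (0.79). Of 6 myeloid markers 4 could be tested. CD68, a lysosomal protein that other cells also express, fell with each extract and between treated and vehicle libraries (-0.25 ± 0.061, adjusted p = 0.008, edgeR). The log2 difference between treated and vehicle libraries was 0.179 for PTPRC, 0.053 for CSF1R and -0.651 for CD14, none of them called. AIF1 was under 3 counts. Of 6 endothelial markers 3 could be tested, and KDR rose with each extract and between treated and vehicle libraries (0.21 ± 0.063, adjusted p = 0.024, edgeR). TEK (-0.334) and PECAM1 (0.412) were not called between treated and vehicle libraries, and CDH5 was under 3 counts. The KDR difference was lost without vehicle 1 or vehicle 2 (adjusted p up to 0.12), its Atractylodis trend also without Atractylodis 500 µg/mL (0.32), and that of CD68 without vehicle 1 (0.069) or Atractylodis 100 µg/mL (0.071) and with GC and length offsets (0.14). Summed levels of the myeloid list were 133 to 164 CPM in treated and 175 to 183 CPM in vehicle libraries, and of the endothelial list 33.3 to 41.4 and 30.3 to 32.9 CPM. Each sum was mostly 1 gene: CD68 had 122.3 to 149.4 CPM in treated libraries and a mean of 166.5 in vehicle. KDR had 30.98 to 38.73 CPM in treated libraries and a mean of 28.95 in vehicle. Whether these markers take part in the changes of the 10 genes was not tested.

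Part of the mesenchymal list fell as well. Of 15 mesenchymal markers, all tested, 9 fell with Poria, 8 with Atractylodis and 8 between treated and vehicle libraries, and none rose, where 11.6%, 10.5% and 13.3% of all genes were called lower. The other 6 or 7 were not called. Their median log2 difference between treated and vehicle libraries was -0.18 (0.01 over all genes), and their summed level was 26150 to 28300 CPM in treated and 31090 to 31670 CPM in vehicle libraries. TAGLN, an actin-binding protein of smooth muscle and myofibroblasts, had 228 to 270.1 CPM in treated libraries and 356 ± 8.73 in vehicle (-0.51 ± 0.048 on the log2 scale, adjusted p = 3.2e-06, edgeR). THY1, a surface glycoprotein of fibroblasts and neurons, had 397 to 472 CPM in treated libraries and 528 ± 8.79 in vehicle (-0.28 ± 0.047, adjusted p = 0.00031, edgeR). The Atractylodis count was 3 of 15 without the Atractylodis 500 µg/mL library, where 632 of the 18249 genes then tested were called lower. The Poria count was 6 of 15 without vehicle 3 or without Poria 100 µg/mL.

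Of 14 transcriptional regulators of mesenchymal glioma, all tested, 3 fell with Poria, 8 with Atractylodis and 8 between treated and vehicle libraries, and none rose. TEAD4, the DNA-binding partner of YAP and TAZ, had 11.8 to 14.6 CPM in treated libraries and 17.2 ± 0.439 in vehicle (-0.39 ± 0.066, adjusted p = 0.00036, edgeR). BHLHE40 had 183 to 200.8 CPM in treated libraries and 227 ± 8.70 in vehicle (-0.24 ± 0.039, adjusted p = 0.00022, edgeR), and STAT3, with CEBPB a known driver of the mesenchymal state, 185 to 199.6 and 216 ± 2.28 CPM (-0.15 ± 0.034, adjusted p = 0.0035, edgeR). With GC and length offsets the count was 1 of 14 for Poria and 5 of 14 between treated and vehicle libraries. The Poria count was 1 of 14 without vehicle 1, 2 or 3 or Poria 100 µg/mL, and the Atractylodis count 4 of 14 without vehicle 3, Atractylodis 100 µg/mL or 500 µg/mL.

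Of 12 other transcription factors of epithelial-mesenchymal transition, 10 could be tested, and 1 rose and 3 fell between treated and vehicle libraries, 1 rose and 1 fell with Poria, and 1 rose and 2 fell with Atractylodis. FOXC2, a forkhead factor of mesenchyme, had 29.1 to 33.0 CPM in treated libraries and 43.6 ± 0.501 in vehicle (-0.48 ± 0.045, adjusted p = 2.1e-06, edgeR). Its slopes among the treated libraries alone were not called (adjusted p = 0.56 for Poria and 0.86 for Atractylodis, edgeR). TCF3, an E protein, fell in all 3 comparisons, and PRRX1, a homeobox factor of mesenchyme, rose in all 3, to 99.3 to 113 CPM in treated libraries, against 97.0 ± 1.26 in vehicle. The Poria calls of these 2 were lost without any one vehicle library or Poria 100 µg/mL (adjusted p up to 0.12 for TCF3 and 0.15 for PRRX1), and the Atractylodis calls without Atractylodis 500 µg/mL (0.13 and 0.085). The Poria call of PRRX1 was also lost without Atractylodis 20 µg/mL (0.057). With GC and length offsets 0 of the 10 were called for Poria, 1 for Atractylodis and 2 between treated and vehicle libraries, with the TCF3 calls for Poria and between treated and vehicle libraries and the PRRX1 calls of all 3 comparisons lost (adjusted p = 0.22 and 0.05 for TCF3, and 0.31, 0.057 and 0.13 for PRRX1). The treated against vehicle calls were lost without vehicle 3 for TCF3 (adjusted p = 0.061) and without vehicle 1 or 2 for PRRX1 (up to 0.075).

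Of 16 epithelial genes that ZEB and SNAI proteins repress, 8 could be tested, and none rose. With Poria 2 fell (KRT18 and DSP), with Atractylodis 3 (KRT18, DSP and KRT8), and between treated and vehicle libraries 1 (DSP). KRT18, a keratin of simple epithelia, had 223 ± 3.63 CPM in vehicle and 211, 162 and 114 CPM at 20, 100 and 500 µg/mL of Atractylodis (-0.29 ± 0.030 log2 per step, adjusted p = 0.00023, edgeR). The Atractylodis count was 1 without the 500 µg/mL library, and the Poria count 1 without Poria 500 µg/mL. DSP, the desmosome protein desmoplakin, was also lost for Atractylodis without vehicle 1, 2 or 3 (adjusted p = 0.081, 0.057 and 0.086) or the 100 µg/mL library (0.065). The summed level of the epithelial genes, the larger part of it KRT18, was 161 to 264 CPM in treated and 277 to 285 CPM in vehicle libraries. ESRP1, GRHL2 and RAB25 were under 3 counts.

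Of 11 genes of the Notch pathway, which lies upstream of SOX9 and NFIA in glial development, all were tested. With Poria 2 fell (NOTCH1 and HES1) and none rose, with Atractylodis 1 fell (NOTCH1) and 2 rose (NOTCH3 and HEY1), and between treated and vehicle libraries 3 fell and none rose. Of all genes, 20.8%, 19% and 25.3% were called either way in these comparisons. NOTCH1 had 58.5 ± 1.41 CPM in vehicle and 56.2, 50.6 and 46.8 CPM at 20, 100 and 500 µg/mL of Atractylodis (-0.10 ± 0.018 log2 per step, adjusted p = 0.0014, edgeR). Without the 500 µg/mL library none of the 11 was called for Atractylodis (NOTCH1 adjusted p = 0.072), HEY1 was lost in 6 of 9 leave-outs (up to 0.16), and none for Poria without vehicle 1, vehicle 3, or the 100 or 500 µg/mL library. Between treated and vehicle libraries none was called without vehicle 1 or vehicle 3. With GC and length offsets none was called for Poria (NOTCH1 adjusted p = 0.27, HES1 0.11), and NOTCH1 was lost between treated and vehicle libraries (0.15).

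Genes whose level followed SOX9 most closely were ranked by Pearson's r over the log2 CPM of the 9 libraries among 11539 genes. Since all 9 libraries share the split into treated and vehicle, r is a description without a test. Of the 5 highest, 4 are given here: TPM1 (0.9881), an actin-binding tropomyosin, MFAP2 (0.9808), a microfibril protein, COL1A1 (0.9772), a fibrillar collagen chain, and PTTG1IP (0.9764). The 5 lowest were CUTC (-0.9898), WRN (-0.9843), a RecQ helicase, BBX (-0.982), EIF4A2 (-0.98), an RNA helicase of translation, and GALNT3 (-0.9795), a glycosyltransferase. TPM1 had 639 to 795 CPM in treated libraries and 860 ± 1.97 in vehicle, COL1A1 had 3108 to 3888 in treated and 4252 ± 44.5 in vehicle, and CUTC had 25.3 to 31.2 in treated and 21.9 ± 0.301 in vehicle. Among the regulators, r with SOX9 was 0.859 for NFIC, 0.736 for SNAI2, 0.733 for NFIX, 0.722 for SOX4, -0.019 for NFIB, -0.191 for NFIA, -0.23 for ZEB2 and -0.614 for ZEB1, while SOX5 was under the level used for this ranking.

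**Figure D4:**
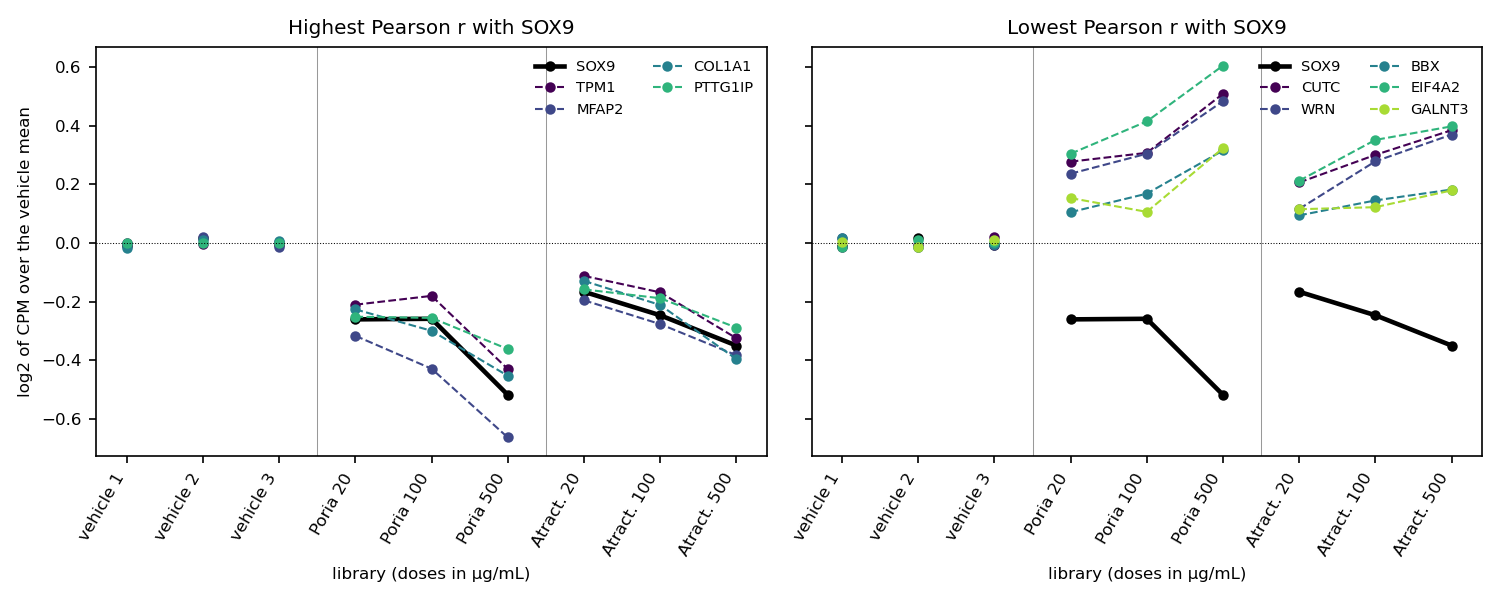
Log2 ratio to the vehicle mean in each of the 9 libraries (horizontal axis) for SOX9 and 4 of the 5 genes with the highest and the 5 with the lowest Pearson r with it. The 4 lie below 0 in the treated libraries, and the 5 lowest lie above 0 there.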

How the data were processed

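Gene-level RNA-seq counts of 9 libraries were analysed. Per the submitters' processing notes and the labels' protocols, the RNA had integrity numbers above 7, libraries used the MGIEasy RNA Directional kit, reads were 100-base pairs, and FastQC 0.11.9, Trim Galore 0.6.5, STAR 2.7.3a, RSEM 1.3.3 and hg38 were used. For the annotation, the release is not given in the sources used here. What the authors deposited are expected counts from RSEM, not normalized, and they were rounded here to whole numbers. The table has 279 columns, of which 9 were used and 270 belong to other samples. Symbols, positions, transcript lengths and GC content were read from GENCODE 29 with a table of gene names (57055 of 60675 genes), and the 3620 genes with no symbol held 0.0314% to 0.0334% of each library's counts. Promoter sequences came from RefSeq.

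Tests used edgeR 4.0.16 in R 4.3.3: TMM scaling, filterByExpr (count minimum 10, total minimum 15), robust quasi-likelihood fits and Benjamini-Hochberg adjustment over 18356 genes tested (42319 not tested), with a threshold of 0.05. The trend fit had 1 slope per extract over the steps 0, 1, 2 and 3 (6 residual degrees of freedom) and also tested the difference of the slopes. The fit within the treated libraries added an offset per extract (4 residual degrees of freedom), and treated against vehicle compared 6 with 3 libraries (7). The biological coefficient of variation was 4.97%, 3.26% and 5.49% in these fits. SE is the log2 change over the square root of F. GC and length offsets were natural splines (5 degrees of freedom) over genes whose log2 CPM averaged 1 or more. Other settings were DESeq2 1.42.0 size factors and its Wald test, no filter, GC and length offsets, dose in µg/mL, and each library left out.

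The 10 genes, the 12 gene lists and the tests were chosen with earlier results of these data known. Named genes are the 10, up to 4 tested genes per list with the smallest p in either trend, and the 5 with the highest and lowest r with SOX9 (genes averaging a log2 CPM of 2 or more), of which 1 is not reported here. COL2A1, ACAN and the cell markers given as counts are on those lists. Expected counts per library were lowest for SOX5 (58 to 102), NFIA (184 to 271) and NFIB (395 to 639), where counting error weighs most.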

Additional observations from a re-analysis of the deposited data

Results flagged for a closer look

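SOX5 at 20 µg/mL of Poria stood apart from the other treated libraries. It had 2.31 CPM (102 expected counts) there, against 1.72 to 1.86 CPM (75 to 91 expected counts) in the other 5 treated libraries and 1.53 ± 0.0953 CPM in vehicle (SD, n = 3). On log2 CPM with a prior count of 2, its gap to the next library was 0.741 of the range of the 6 treated libraries, over Dixon's limit of 0.625. Chance puts about 1 in 20 groups over that limit, and both ends of the range were looked at for 10 genes.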

How the results depend on the processing

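The 10 genes were compared over 830 pairs of result and setting, of which 43 changed sign, 1 of them a value called in the fit as reported (SOX9 within Poria without the 500 µg/mL library, 0.003) and 0 called after the change. DESeq2 size factors ended no call of the 10 genes. Fitted on dose in µg/mL (log2 change over 500 µg/mL), the trends called 125 genes and 1 of the 10 for Poria and 67 genes and 0 of the 10 for Atractylodis, and their difference 54 genes. The slopes within treated libraries called 2 of the 10 for Poria, where the number among all genes is not given here (449 on the step scale). For Atractylodis those slopes called 269 genes and 1 of the 10. Values that changed sign on dose in µg/mL were Poria ZEB2 (-0.006), Atractylodis SOX5 (-0.026), the difference for NFIX (0.033), SNAI2 within Poria (0.009), and SOX4 (-0.048) and NFIA (-0.003) within Atractylodis. With no filter the difference called 555 genes and 2 of the 10, and the Poria slope within treated libraries 685 genes and 2 of the 10; the DESeq2 Wald test called 328 genes for the difference and 240 genes and 0 of the 10 for the Poria slope. With GC and length offsets the Atractylodis slope within treated libraries called 488 genes, and without them 742. Those offsets turned the sign of the Poria trends of NFIA (-0.007), NFIB (-0.006) and ZEB2 (-0.043), the Atractylodis trends of SOX5 (-0.011), ZEB1 (-0.021) and ZEB2 (-0.035), treated minus vehicle for ZEB1 (-0.075) and ZEB2 (-0.092), and ZEB2 (-0.033) and SNAI2 (-0.017) within Atractylodis. The causes of these shifts were not tested.

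With each library left out in turn, the trends called 2552 to 4242 genes and 4 to 5 of the 10 for Poria, and 1035 (without Atractylodis 500 µg/mL) to 4297 genes and 2 to 5 of the 10 for Atractylodis. The difference between trends called 0 to 300 genes (0 without either 500 µg/mL library) and 0 to 2 of the 10, and treated minus vehicle 2986 (without vehicle 1) to 5353 genes and 3 to 4 of the 10. The slope within treated libraries called 16 (without Poria 500 µg/mL) to 657 genes and 0 to 2 of the 10 for Poria, and 102 (without Atractylodis 20 µg/mL) to 1196 genes and 0 to 2 of the 10 for Atractylodis. NFIX passed for treated minus vehicle with no filter (adjusted p = 0.0086), in DESeq2 (0.047) and without Atractylodis 20 µg/mL (0.0023), and the Poria slope of SOX4 within treated libraries with no filter (0.015), with dose in µg/mL (0.024) and without Poria 20 or 100 µg/mL (0.036 and 0.033). Results whose sign changed ranged over: Poria trend NFIA -0.06 to 0.059, NFIB -0.026 to 0.058 and ZEB2 -0.004 to 0.014. Atractylodis trend SOX4 -0.023 to 0.016, SOX5 -0.004 to 0.068 and NFIA -0.036 to 0.015. The difference between trends ranged over -0.036 to 0.074 for NFIA, -0.019 to 0.037 for NFIC, -0.005 to 0.048 for ZEB1 and -0.012 to 0.004 for ZEB2. Treated minus vehicle ranged over -0.006 to 0.055 for ZEB1 and -0.008 to 0.036 for ZEB2. Within Poria the slopes ranged over -0.259 to 0.003 for SOX9, -0.287 to 0.038 for SOX4, -0.091 to 0.312 for NFIA, -0.086 to 0.243 for NFIB, -0.07 to 0.01 for NFIC, -0.1 to 0.045 for NFIX, -0.029 to 0.02 for ZEB2 and -0.096 to 0.07 for SNAI2. Within Atractylodis they ranged over -0.12 to 0.123 for SOX4, -0.178 to 0.283 for NFIA, -0.011 to 0.166 for ZEB1, -0.023 to 0.037 for ZEB2 and -0.034 to 0.054 for SNAI2. No paired analysis was possible because the vehicle holds replicates 1 to 3 and every treated group replicate 2 alone, so that no pair of groups shares more than 1 number. Each dose has 1 library, so no single dose has a replicate check.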
